A study of Mus musculus with 36 samples.

Results

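Myoepithelial cells of the mouse submandibular gland were taken from Drop-seq libraries by their transcripts, and 175 such cells were found among 23346 cells (0.750%). Drop-seq is a droplet method that tags the 3′ end of each mRNA with a unique molecular identifier (UMI), so each UMI stands for 1 captured transcript and its number does not grow with transcript length. A barcode was counted as a cell with at least 100 detected genes and under 15% of its UMIs from mitochondrial genes. A cell was counted as myoepithelial when it held a UMI of at least 3 of the 7 contractile genes Acta2, Myh11, Tagln, Myl9, Mylk, Cnn1 and Actg2, at least 1 of them being Myh11, Cnn1 or Actg2, and at least 1 UMI of the basal keratins Krt14 or Krt5. The levels of these 9 genes chose the cells and are therefore given below as a description, without a test.

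Myoepithelial cells lie between the secretory epithelium and its basement membrane, wrap the acini and the first ducts with long processes, and contract to press saliva out of the gland. They are of epithelial origin and keep the basal keratins, and they also carry the smooth-muscle form of actin and myosin. Myosin light chain kinase, activated by calcium and calmodulin, drives their contraction. Many genes of the smooth-muscle apparatus are controlled by serum response factor (SRF) together with myocardin-family coactivators.

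The Drop-seq part held 26 glands of C57BL/6 mice of both sexes, 1 mouse a gland, and each gland was treated as 1 replicate. At postnatal day 40 (P40) there were 6 controls and 7 double mutants, and at P90 again 6 controls and 7 double mutants. Double mutants carried K14-Cre, a floxed β-catenin allele that gives gain of function (GOF), homozygous floxed Bmpr1a that gives loss of function (LOF), and a Cre-inducible R26-EYFP reporter, and these mice form salivary gland tumors. The control glands carry the label wildtype, while the methods of the study describe controls as K14-Cre with the same reporter, so both genotypes would share Cre and EYFP. The Cre is driven by the promoter of keratin 14, and a 3′ UMI of Bmpr1a or of Ctnnb1, which encodes β-catenin, does not check either recombined allele. Cells had been sorted without dead cells and clusters and fixed in methanol before capture.

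The glands gave between 777537 and 7013325 UMIs each. The median cell held 1527 UMIs and the median member 1071 (lowest 312, highest 17657), with 677 genes detected in the median member. By group, the median cell held 2892 UMIs in control P40 glands, 1341 in control P90, 1570 in double-mutant P40 and 766.5 in double-mutant P90 glands. In double-mutant P40 replicate 1 and double-mutant P90 replicate 5 the sex-linked transcripts went against the labelled sex, and double-mutant P90 replicate 4 had a high ribosomal content, so results that use these 3 libraries were also computed without them. A total of 14 cell barcodes occurred in more than 1 Drop-seq table, and none of them was a member. The 4 glands profiled by CITE-seq at P70 held 0 members among 638 and 497 double-mutant cells and among 672 and 728 control cells, which allows shares of up to 0.470%, 0.604%, 0.446% and 0.412% of cells passing the rule at their depth, a limit that covers counting error only.

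The 6 markers given for this cell type (Acta2, Myh11, Tagln, Cnn1, Krt14 and Krt5) are all genes of the rule, so their presence does not check the label independently. Acta2, the smooth-muscle actin, was detected in 97.1% of members, Myh11, the smooth-muscle myosin heavy chain, in 94.3%, Mylk, the myosin light chain kinase, in 89.7%, and Myl9, a regulatory light chain, in 80.0%. Cnn1 (calponin) was detected in 77.1%, Tagln (transgelin) in 76.0% and Actg2, the enteric smooth-muscle actin, in 14.3%. Of the keratins, Krt14 was found in 89.7% of members and Krt5 in 55.4%. Levels were expressed as CPM, the counts of a gene scaled to 1000000 UMIs summed over the members of a gland, in the 14 glands with at least 5 members, 7 control and 7 double-mutant. Acta2 stood at 5770 ± 2719 CPM (SD, n = 14), with a range of 1099 to 9151, against a mean of 39.3 in all other cells of the same glands. Myh11 stood at 2767 ± 1337, Mylk at 2578 ± 1212, Myl9 at 1611 ± 687, Krt14 at 1582 ± 887, Cnn1 at 1512 ± 874, Tagln at 1498 ± 1014 and Krt5 at 605 ± 310 CPM. Acta2 exceeded the next gene by more than 1 SD, while from Myh11 to Krt5 each gene differed from its neighbour in this order by less than 1 SD of the higher gene. Actg2 was at 118 ± 151 CPM, with 0 in the lowest gland and 477 in the highest.

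Most members passed the rule with room to spare. UMIs of 3, 4, 5, 6 and 7 of the contractile genes were found in 13, 25, 54, 65 and 18 members. Just outside the rule stood 8 cells with 2 contractile genes and 13 cells that lacked each of Myh11, Cnn1 and Actg2. Tpm2, a tropomyosin that the rule did not use, was detected in 46.2% of the 13 members with 3 contractile genes and in 37.5% of the 8 cells with 2. On the keratin side, 44 members held a single keratin UMI and 197 cells passed the contractile rule with none. Pcp4, described next, was detected in 63.6% of those 44 members and in 16.8% of those 197 cells, and Rgs5, a regulator of G-protein signalling typical of pericytes, in 4.55% and 42.1%.

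Outside the rule, the gene with the highest ratio of level in members to level in other cells was Pcp4, a small calmodulin-binding protein (chr16:96467606-96525793, + strand, GRCm38). It was detected in 65.7% of members, 1.6% of Krt14- or Krt5-positive cells without contractile UMIs, 16.8% of contractile cells without keratin UMIs and 0.570% of all 23171 cells that were not members, which include both of those sets and are called other cells throughout. Its level in members was 1233 ± 706 CPM (SD, n = 14; 286 to 2978), and it lay above the other cells in 14 of 14 glands. The 25 genes with the highest ratios ran from 277 for Pcp4 to 40.1 for Igfbp5, and they are described here by what each is known to do, with no test of any group. Tpm2 (85.7% of members, 3014 ± 1861 CPM), Lmod1, an actin nucleator of smooth muscle (42.3%), Nexn, an actin-binding protein (27.4%), Synm, an intermediate filament protein (25.1%), Fhod3, a formin (26.3%) Pgm5, a protein of muscle adhesion sites (20%), and Tgfb1i1, a focal adhesion adaptor (22.3%), are known from contractile cells. Secreted products were the insulin-like growth factor binding proteins Igfbp5 (76.6%, 2818 ± 2030 CPM) and Igfbp2 (53.7%, 897 ± 766), periostin Postn (50.3%), the activin antagonist Fst (38.9%), the Wnt antagonist Sfrp1 (30.3%), the growth factor Fgf7 (22.9%), the peptide hormone Cck (22.9%), Ism1 (32%) and the matrix proteins Matn2 (22.3%) and Spon2 (23.4%). Membrane proteins were Gas1, which binds hedgehog ligands (45.1%), the tetraspanin Tspan2 (38.3%), Lhfp (38.9%), Pmp22, a myelin protein (28.6%), and the chemokine scavenger receptor Ackr3 (25.1%). The remaining genes were 1500015O10Rik, second in the order with a ratio of 227 (37.7% of members), and the transcription factor Osr1 (28%). These ratios rank genes within cells that had been chosen for high levels of related genes, and are a description.

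**Figure D1:**
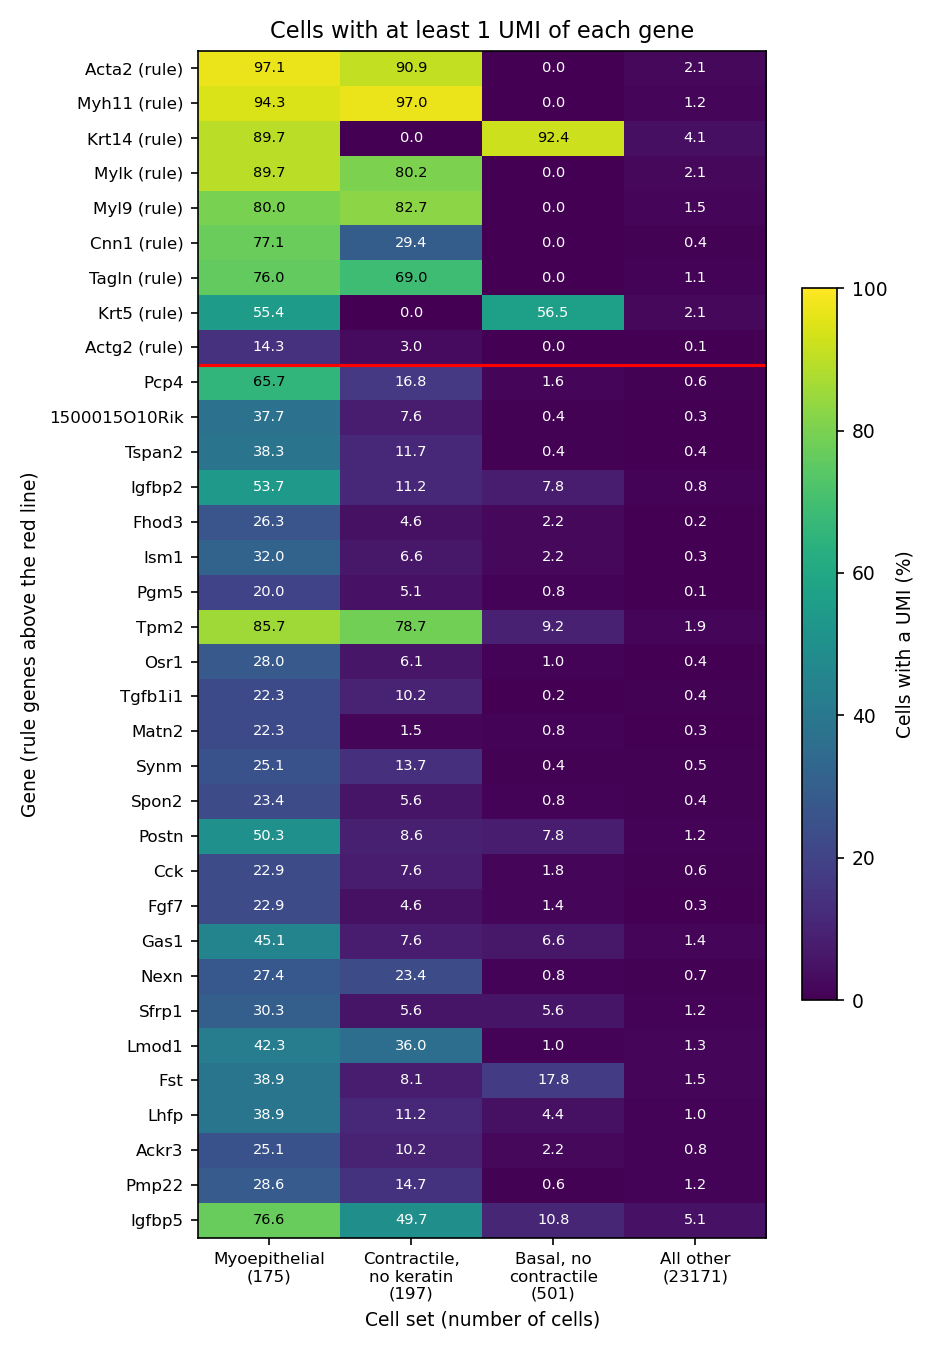
Share of cells with at least 1 UMI of each gene, in percent, for the 9 genes of the rule and the 25 genes outside it with the highest ratio of level in members to other cells, in 4 sets of cells (myoepithelial cells, basal cells without contractile UMIs, contractile cells without keratin UMIs and all other cells). Pcp4 stands at 65.7% in myoepithelial cells against 1.6% and 16.8% in the basal and the contractile set, while Tpm2 is high in both contractile sets at 85.7% and 78.7%.

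Transcription factors of the lineage were found at low to moderate shares. Trp63, the p53-family factor of basal epithelium, was detected in 25.7% of members, 18.0% of the basal set and 5.08% of the contractile set. Nfib and Sox9, factors of gland epithelium, were found in 54.9% and 42.3% of members. Sox10, a factor of the acinar and intercalated duct lineage, was found in 10.3% of members, 0.20% of the basal set and 3.22% of other cells. Srf was detected in 10.9% of members and its coactivator Myocd in 2 cells (1.14%). Of receptors that start contraction, the muscarinic receptor Chrm3 was seen in 6 members and the adrenergic receptor Adra1a in 1, and the oxytocin receptor Oxtr in 0 of 175. At a median depth of 1071 UMIs, 0 of 175 allows up to 1.71% of cells with a UMI (3 counts), which limits detection and not the share of cells that express the receptor. Gja1, the gap-junction protein connexin 43, was found in 24.6% of members and in 9.78% and 2.03% of the basal and contractile sets. The proliferation marker Mki67 was found in 4 members (2.29%) and Top2a in 9 (5.14%).

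Sequences near the start of the contractile genes were searched for the CArG box, the site bound by SRF, on both strands of RefSeq windows from 250 bases before to 50 bases after each annotated start (GRCm38.p6). Of 32851 windows over all genes, 535 (1.63%) held a CArG box. A window was present for 4 of the 7 contractile genes of the rule and 1 of them held the box, and 23 genes of the contractile list outside the rule had 30 windows, of which 2 held it. The 3 sites are printed with the box in capitals because Myl9, Myl6 and Vcl, which encode a regulatory light chain, an essential light chain and vinculin, are parts of the apparatus that defines these cells. They lie 161, 50 and 227 bases before the annotated start, at chr2:156775293-156775322 (+ strand), chr10:128493040-128493069 (- strand) and chr14:20929161-20929190 (+ strand).
Myl9: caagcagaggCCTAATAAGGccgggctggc
Myl6: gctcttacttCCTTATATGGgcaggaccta
Vcl: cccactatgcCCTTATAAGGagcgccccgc
A match is a description of these letters and not a shown binding site, and the absence of one in the other windows says only that they do not hold it.

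To see what accompanies the contractile genes within keratin-positive cells, members were compared with 501 basal cells that held at least 2 UMIs of Krt14 plus Krt5 and no UMI of the contractile genes. The basal set came from glands of both genotypes and was not split into normal and tumor basal cells. UMIs were summed over each set in the 13 glands with at least 5 cells of both, and edgeR's quasi-likelihood test was fitted with gland as a block. Members held more of the contractile genes outside the rule, of matrix genes such as Sparc and Postn, of Pcp4 and of Igfbp5 and Igfbp2, and less of Ly6d, of the luminal keratins Krt8 and Krt18 and of the BMP targets Id1, Id2 and Id3. In all, 294 of the 1021 genes tested outside the rule passed an adjusted p of 0.05 (28.8%), 126 higher (12.3%) and 168 lower (16.5%), with a median log2 difference of -0.08 over all of them. With size factors from the relative log expression method the median moved up by 0.22 on the log2 scale and the same threshold was passed by 160 genes higher and 104 lower, so the balance of directions depends on the scaling. Both sets had been picked by marker UMIs, and these counts describe what goes with those markers.

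All 11 tested genes of the 24-gene contractile list outside the rule were higher in members, with a median log2 difference of 2.44. The others were not tested, and the basal cells had been chosen without UMIs of related genes, so this tally was in large part set by the selection. Tpm2 in the 13 glands lay between 1099 and 6795 CPM in members (median 2502) and between 0 and 264 in basal cells (median 74.8). The glands did not overlap, and the log2 difference was 5.36 ± 0.36 (SE). Cald1, the actin-binding caldesmon, was higher by 4.44 ± 0.29 at a mean of 1830 against 76.4 CPM, and Flna (filamin A), Palld (palladin), Tpm1 and Myl6 by 2.75, 2.81, 2.44 and 2.36. Ppp1r12a, the targeting subunit of myosin phosphatase, was higher by 2.93, and the focal adhesion genes Tln1 and Lpp were among the 11 as well. The adjusted p of Tpm2 was 3.5e-13 in edgeR's quasi-likelihood test, and that of Flna 6.8e-08. For comparison, Pcp4 lay between 553 and 2978 CPM in members (median 1177) and between 0 and 109 in basal cells (median 0). It was higher in members in 13 of 13 glands by 5.73 ± 0.38 on the log2 scale (edgeR adjusted p = 3.5e-13).

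The 31-gene list of contraction receptors and calcium handling had 5 tested genes, of which 5 were higher and 0 lower (median 1.56). These genes, too, could enter the test through members alone, so the tally does not speak for the list. Plcb4, a phospholipase C that acts below G-protein-coupled receptors, was between 220 and 2144 CPM in members and between 0 and 374 in basal cells, a log2 difference of 3.02 ± 0.28. Atp2a2, the calcium pump of the sarcoplasmic reticulum, was higher by 2.64, Gja1 by 1.56 and Gnaq, the G-protein subunit that activates phospholipase C, by 1.34. The fifth gene was Ptrf, which shapes caveolae. The muscarinic and adrenergic receptors did not pass the filter on low counts.

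Matrix and adhesion genes divided. Of the 30 genes of basement membrane and matrix, 9 were tested, and 7 were higher and 0 lower (median 1.86). Here and for the lists that follow, a gene could enter the test through either set alone, so the tallies do not speak for the lists. Sparc, a collagen-binding matricellular protein, stood between 1158 and 4144 CPM in members and between 52.8 and 979 in basal cells, so the groups did not overlap (log2 difference 3.0 ± 0.22). Col4a1, a collagen of the basement membrane, was higher by 3.01 ± 0.34, Postn by 3.34 ± 0.45 and the metalloproteinase inhibitor Timp3 by 1.86. The 26-gene list of basal epithelium and adhesion had 4 genes higher and 5 lower of 16 tested (median -0.10). The higher ones were Itga6, the integrin subunit that pairs with β1 or β4 to bind laminin (1.89 ± 0.31, higher in 11 of 13 glands, means of 657 against 186 CPM), the zinc-finger factor Snai2 (1.22), the laminin chain Lamb3 (1.14) and the integrin subunit Itgb1 (0.77). The lower ones were Krt17 (-1.18 ± 0.23, 410 against 1157 CPM), Epcam (-1.24 ± 0.29) and Krt8, Krt18 and Sfn, given below.

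Among secreted signals, 5 were higher and 3 lower of 8 tested from a list of 37 (median 1.63). Igfbp5 was between 575 and 6547 CPM in members (median 2502) and between 0 and 1250 in basal cells (median 54.6), a log2 difference of 4.47 ± 0.30. Igfbp2 was higher by 3.88 ± 0.38, Kitl, the ligand of the receptor Kit, by 1.86 and the platelet-derived growth factor Pdgfa by 1.41. Apoe, an apolipoprotein, was at a mean of 5971 against 991 CPM and higher by 2.78. The lower ones were the heparin-binding growth factors Ptn and Hbegf and the chemokine Cxcl1. Dcn and Gsn, which the list of fibroblast markers also holds, were the 2 tested genes of that list and both were higher.

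Furthest below the basal set stood Ly6d, a surface protein of stratified and basal epithelium, which was at 0 in the median gland for members (highest 1538 CPM) and between 351 and 2433 in basal cells (median 1330). It was lower in members in 13 of 13 glands, with a log2 difference of -4.54 ± 0.44 (edgeR adjusted p = 1.9e-09). The tight-junction gene Cldn4 differed by -3.29 (98.2 against 1155 CPM), Ptn by -3.23, the matricellular Smoc2 by -3.33, Cxcl1 by -2.86, Wfdc2 by -2.81 and the epidermal gene Sfn by -2.47. Krt18, a keratin of luminal cells, ran from 0 to 575 CPM in members and from 453 to 2211 in basal cells (-2.09 ± 0.31), and its partner Krt8 differed by -1.04. Of 6 tested genes of the 27-gene BMP list, 3 were lower and 1 higher (median -0.66), the lower ones being the targets Id1 (-1.82), Id2 (-1.13) and Id3 (-2.32), which are dominant-negative partners of bHLH factors, and the higher one Fst (1.76 ± 0.35). From the 38-gene Wnt list 4 were tested, with 2 lower, Myc (-2.42) and the cyclin Ccnd1 (-1.71), and 1 higher, the secreted antagonist Sfrp1 (3.50 ± 0.38). The immediate early list had 6 higher and 4 lower of 22 (median 0.08), with Egr1 higher by 1.1 and Maff lower (-2.48). The 6 included the heat-shock chaperones Hspa1a and Hspa1b, which the list also holds. Runx1, a factor of the lineage list, differed by -0.98, and with the relative log expression size factors its adjusted p rose to 0.0969 in edgeR.

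Trp63 (0.65 ± 0.38, adjusted p = 0.234), Sox9 (0.33 ± 0.27, adjusted p = 0.427) and Nfib (0.10 ± 0.22, adjusted p = 0.799) did not pass edgeR's test, which does not show that the sets had equal levels. Of the other lists few genes were tested. Interferon and antigen presentation had 0 higher and 1 lower of 7 tested (the class I gene H2-K1, -1.07), cell cycle 0 and 2 of 4 (Hmgb2 and Tubb5), SRF and lineage factors 0 and 1 of 5 (Runx1), markers of the tumor cell populations 2 (Snai2 and Sparc) and 2 (Ptn and Wfdc2) of 8, duct markers 0 and 2 of 7 (Krt8 and Krt18), and acinar markers 0 and 0 of 6.

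**Figure D2:**
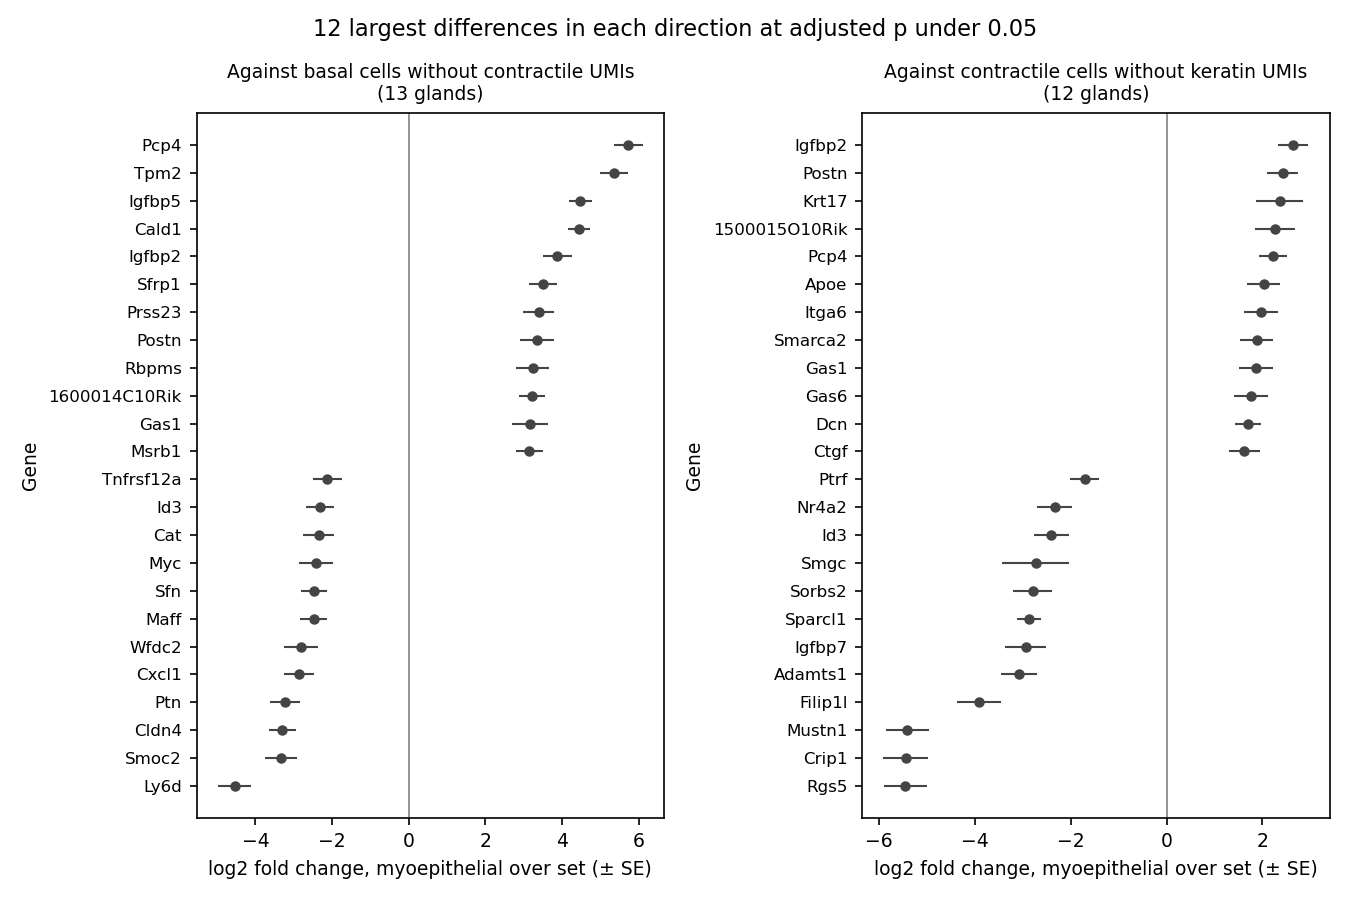
Log2 difference (± SE) of the 12 genes furthest in each direction among those past the threshold, for myoepithelial cells against basal cells without contractile UMIs (13 glands) and against contractile cells without keratin UMIs (12 glands). Pcp4 leads the first comparison at 5.73 and Ly6d closes it at -4.54, while Igfbp2 leads the second at 2.64 and Rgs5 stands at -5.45.

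The opposite comparison set members against 197 cells that passed the contractile rule with no keratin UMI, in the 12 glands with at least 5 cells of both sets. Members held more Igfbp2, Postn, Krt17, Itga6 and Pcp4, the contractile set held more Rgs5, Crip1 and Mustn1, and 1 of 11 tested contractile genes outside the rule differed. Of 472 genes tested outside the rule, 91 passed an adjusted p of 0.05 in edgeR's quasi-likelihood test (19.3%), 47 higher in members (9.96%) and 44 lower (9.32%), with a median log2 difference of 0.02 over all tested. The contractile list outside the rule had 0 higher and 1 lower of 11 (median -0.16), the lower one being Ppp1r12a (-0.77). Without double-mutant P40 replicate 2 the count of genes was 55. These 2 sets, too, had been picked by marker UMIs, and the counts describe what goes with those markers.

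Among the genes of the rule, given by value with no test, Cnn1 averaged 1516 CPM in members against 395 in the contractile set, Acta2 5750 against 3885, Myh11 2825 against 2896, and Myl9 1675 against 2695.

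Genes higher in members were led by Igfbp2, between 0 and 2762 CPM in members (median 817) and between 0 and 254 in the contractile set (median 81.3). It was higher in 11 of 12 glands by 2.64 ± 0.32 on the log2 scale (edgeR adjusted p = 1.2e-07). Postn was higher in 12 of 12 glands (2.42 ± 0.33, means of 953 against 104 CPM), and Pcp4 also in 12 of 12 (2.22 ± 0.29, 1292 against 203 CPM). Krt17 ran from 123 to 1013 CPM in members and from 0 to 258 in the contractile set (2.36 ± 0.49). Itga6 was higher in 9 of 12 glands (1.97 ± 0.36, 658 against 129 CPM), and with Krt17 and the desmosomal regulator Perp (1.27) made 3 higher and 0 lower of 5 tested genes of basal adhesion (median 1.27). The contractile set had been chosen without UMIs of Krt14 or Krt5, and genes could enter the test through members alone. That tally thus does not speak for the basal list apart from the selection. Matrix genes had 6 higher and 1 lower of 10 (median 0.86), with Postn, Ctgf (1.62) and Sparc among the higher and Igfbp7 the lower one. Secreted signals had 3 higher and 0 lower of 5, Igfbp2, Igfbp5 (1.44) and Apoe (2.03). Sostdc1, an antagonist of BMP and Wnt ligands, was higher by 1.38. Gas1 was higher by 1.87, Gas6, the ligand of TAM receptors, by 1.76 and Sox9, the 1 of 3 tested lineage factors past the threshold, by 0.97.

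Lower in members was first of all Rgs5, at 0 in the median gland for members (highest 430 CPM) and between 274 and 5778 CPM in the contractile set (median 1056). It was lower in 12 of 12 glands, with a log2 difference of -5.45 ± 0.45 (edgeR adjusted p = 2.4e-11). Crip1, a LIM-domain protein, ran from 0 to 1758 CPM in members (median 0) and from 576 to 7246 in the contractile set (-5.45 ± 0.46), and Mustn1, a musculoskeletal nuclear protein, from 0 to 220 and from 0 to 1861 (-5.41 ± 0.45). Also lower were Filip1l (-3.91), the protease Adamts1 (-3.08), Igfbp7 (-2.94), Sparcl1 (-2.87) and the submandibular secretory gene Smgc (-2.73). Desmin, Des, the filament of vascular and visceral muscle, was detected in 1.14% of members and 16.2% of the contractile set, and the endothelin receptor Ednrb in 0.57% and 11.2%. BMP genes had 1 higher and 2 lower of 3, with Id3 at -2.40, and contraction and calcium genes 1 higher (Plcb4) and 2 lower (Rgs5 and Ptrf) of 4. The immediate early list had 2 higher (Cyr61 and the chaperone Hspa1b) and 1 lower (Nr4a1) of 18.

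**Figure D3:**
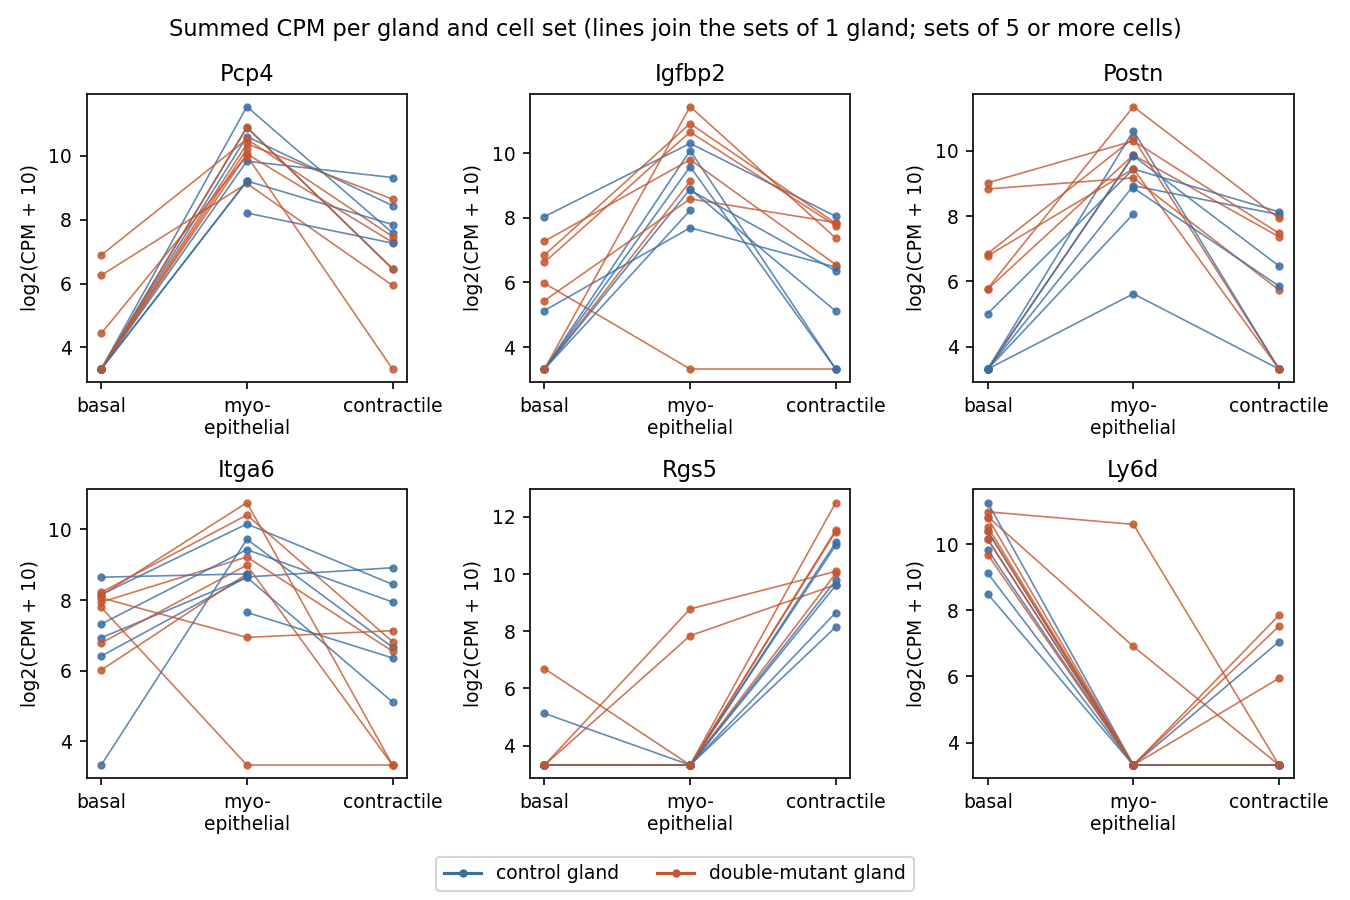
Level per gland on the scale log2(CPM + 10) in basal cells without contractile UMIs, myoepithelial cells and contractile cells without keratin UMIs, for Pcp4, Igfbp2, Postn, Itga6, Rgs5 and Ly6d, with the sets of 1 gland joined by a line. Pcp4 peaks in the middle set, Ly6d is high in basal cells and Rgs5 in contractile cells.

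Markers of other cell types were counted in members before any comparison between conditions. At least 1 marker of the pericyte list was found in 30 of 175 members, of the endothelial list in 16, of the immune list in 34 and of the fibroblast list in 153, the last mostly through Dcn and Gsn. At 0 in all members were 4 of the 15 pericyte markers (Abcc9, Higd1b, Heyl and Vtn), 3 of the 12 endothelial markers (Cdh5, Tie1 and Cldn5), 2 of the 11 fibroblast markers (Dpt and Mfap5) and 3 of the 18 immune markers (Cd3e, Cd3g and Mzb1). Other markers of the same lists were found in a few members, such as Pdgfrb in 1, Cspg4 and Mcam in 3 each, Pecam1 in 3, and Col1a1, Lum and Pdgfra in 2 each. The acinar list was found in 166 members and the duct list in 157, at summed levels of 2621 to 427280 CPM and 1467 to 50976 CPM over the 14 glands, against 165906 and 32805 CPM in other cells. The acinar sum ran from 2621 to 427280 CPM in control members and from 5279 to 142073 in double-mutant members. The part of these secretory transcripts in the results below was not tested, and no doublet caller was run. A group of 10 members with over 5000 UMIs, from 6 glands, held 34.1% of the 329189 UMIs of all members, and 67 members held UMIs of at least 2 markers of the immune, endothelial, fibroblast or pericyte lists.

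The share of myoepithelial cells was compared between conditions over glands, with 4 tests in the family and Benjamini-Hochberg adjustment over them. In controls, P40 glands held 1.17%, 1.38%, 0.697%, 1.14%, 0.105% and 0.374% in replicates 1 to 6. P90 control glands held 1.75%, 0.101%, 0%, 0.288%, 1.46% and 1.46%, where 0 of 642 cells allows a share of up to 0.467%. Both ages had glands above 1% and glands near 0, and they overlapped across their range. The mean was 0.844% ± 0.795 at P90 and 0.810% ± 0.501 at P40 (SD, n = 6 each), a difference of 0.0344 points (two-sided exact permutation p = 0.931, adjusted p = 0.931). All control P90 glands came from batches 7 to 9 and all control P40 glands from batches 12 to 14, so that age and batch cannot be told apart in controls.

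In double mutants, P40 glands held 1.16%, 2.68%, 1.14%, 1.2%, 0.561%, 0.735% and 0.706% of myoepithelial cells, and P90 glands 0.0937%, 0.330%, 0.693%, 0.117%, 0.0827%, 0.0907% and 0%, where 0 of 680 cells allows a share of up to 0.441%. Replicate 2 at P40 was the highest of all glands with 19 members among 710 cells (95% exact interval 1.62 to 4.15%), and of the P90 glands only replicate 3, with 5 members among 721 cells, exceeded the lowest P40 gland. The mean fell from 1.17% ± 0.712 at P40 to 0.201% ± 0.240 at P90 (SD, n = 7 each), a difference of -0.967 points (two-sided exact permutation p = 0.00117, adjusted p = 0.00466). Without the 3 doubted libraries it was -0.928 points (exact p = 0.0173). Within batches 11 to 13, which held double-mutant glands of both ages, it was -1.19 points (exact p = 0.0417, the smallest that the 24 arrangements allow).

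Depth moved with this contrast, since the median double-mutant cell held 1570 UMIs at P40 and 766.5 at P90, and shallower cells pass a rule on several genes less easily. After each cell was thinned to 1000 UMIs the difference was -0.819 points (0.0821% against 0.902%, exact p = 0.00233), with 1 member left at P90 and 34 at P40 and 3701 and 1954 cells left out as shallower. At 500 UMIs it was -0.610 points (0.0989% against 0.709%, exact p = 0.00233), with 3 and 39 members and 2070 and 554 cells left out. Within batches at 500 UMIs it was -0.634 points and did not pass (exact p = 0.0833).

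The fall was not shown to be particular to the myoepithelial cells. In the same double-mutant glands the contractile cells without keratin UMIs made 1.27% ± 1.17 at P40 and 0.713% ± 0.887 at P90, a difference of -0.559 points (exact permutation p = 0.382). Basal cells without contractile UMIs made 2.81% ± 1.38 and 2.54% ± 1.62, a difference of -0.270 points (exact p = 0.731), and cells with a UMI of Epcam, Krt8, Krt18, Krt14 or Krt5 made 61.1% ± 16.4 and 54.2% ± 12.98, a difference of -6.84 points (exact p = 0.388). The change of the myoepithelial share differed from that of the contractile set by -0.408 points (exact p = 0.361) and from that of the basal set by -0.697 points (exact p = 0.346). Counted per epithelial cell, the myoepithelial share fell by 1.75 points (exact p = 0.00175).

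**Figure D4:**
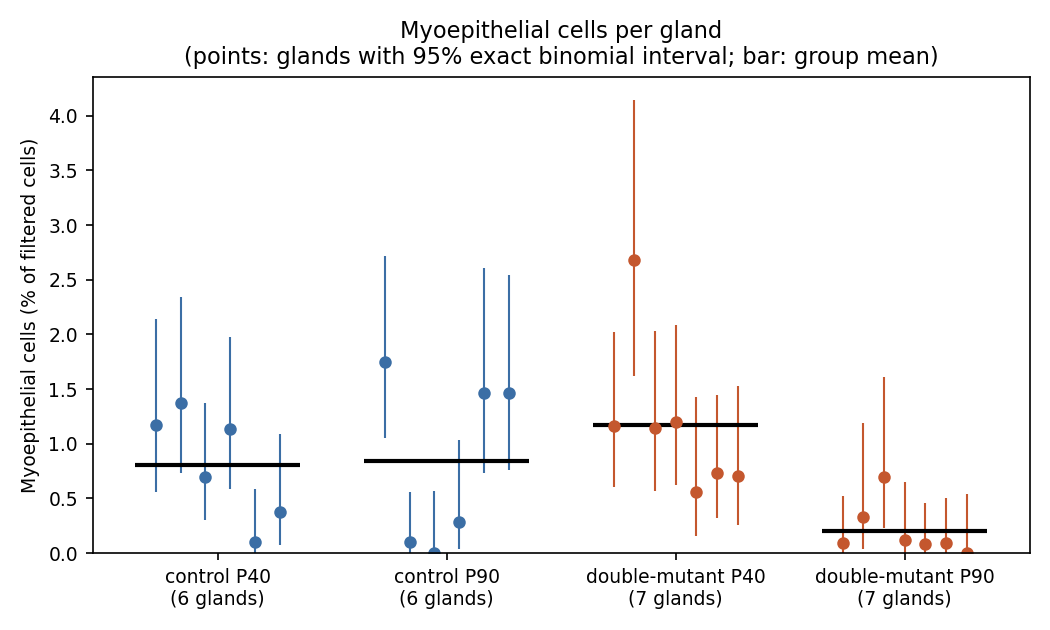
Share of myoepithelial cells per gland in percent of cells, with 95% exact binomial intervals that cover counting error only, in control and double-mutant glands at P40 and P90. Horizontal bars are group means, at 0.810% and 0.844% in controls and 1.17% and 0.201% in double mutants.

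Over all glands the double mutants held 0.685% ± 0.716 (SD, n = 14) and the controls 0.827% ± 0.634 (n = 12), a difference of -0.142 points (two-sided permutation p = 0.605, adjusted p = 0.807). At P40 alone the difference was 0.359 points (exact p = 0.361) and at P90 alone -0.643 points (exact p = 0.0851), with opposite signs. The change with age in double mutants less that in controls was -1.0 points (permutation p = 0.0412), -0.896 points after thinning to 1000 UMIs (p = 0.0107) and -0.962 points without the doubted libraries (p = 0.0804). This contrast was outside the adjusted family. Its control side holds age together with batch, which cannot be told apart there. Male and female control glands held 0.655% ± 0.639 and 0.999% ± 0.636 (n = 6 each), a difference of -0.343 points (exact permutation p = 0.366, adjusted p = 0.732).

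Within the myoepithelial cells, few genes differed between genotypes. UMIs summed over members in 7 double-mutant and 7 control glands were tested with sex and stage as covariates, and 1 of 1443 genes passed (0.0693%), with 95 genes at an unadjusted p under 0.05. The double-mutant glands were 6 at P40 and 1 at P90, the latter with 5 members and 4550 UMIs. The control glands were 4 at P40 and 3 at P90. Values of double-mutant members, here and in the interaction below, thus come mostly from P40. DESeq2 called 0 genes, with 77 at an unadjusted p under 0.05. In simulated data of this size, with 1452 genes, the fit recovered 5.97% of genes changed 2-fold, 52.2% of those changed 4-fold and 80.3% of those changed 8-fold, so only large changes could be seen. It also called 5 of 1252 unchanged genes. The data were a single draw with variation between glands set by its trend over genes, so recovery in the real data may differ. The gene called was BC048546, a secretory transcript of the gland, at 107 CPM on average in double-mutant members (0 to 561, median 0) and 822 in control members (0 to 5276, median 0). The high mean rested on control P40 replicate 4. The log2 difference was -4.87 ± 0.74 (edgeR adjusted p = 6.2e-05), and all other cells showed the opposite order of means, with 1509 CPM in double mutants and 468 in controls. Without control P40 replicate 3, control P40 replicate 4 or double-mutant P40 replicate 4, or without members holding markers of other types, BC048546 no longer passed the filter on low counts and was not called.

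None of the gene lists had a gene past the threshold between genotypes. The contractile list outside the rule had 20 tested genes with a median log2 difference of -0.07, the Wnt list 5 with 0.59, the BMP list 8 with 0.55, the matrix list 17 with 0.37 and the immediate early list 22 with 0.15, against -0.02 over all genes tested. The lists furthest from 0 were those of secretory cells, with a median of -2.49 over 7 acinar markers and -0.87 over 8 duct markers. Markers of the tumor cell populations had a median of 0.72 over 11 genes, and Dcn and Gsn, the 2 tested fibroblast markers, one of 0.64. The part of other cells' transcripts in the genotype comparison was not tested. Acta2, given by value, averaged 6244 CPM in double-mutant and 5297 in control members, and Krt14 1837 and 1328. With scaling and covariates the fitted log2 difference was -0.40 ± 0.56 (SE) for Acta2 and 0.35 ± 0.32 for Krt14. The order of the CPM means of Acta2 thus did not hold in the fit. Pcp4 differed by -0.17 ± 0.35 (edgeR adjusted p = 0.993). Of the genes the alleles act on, Ctnnb1 averaged 331 CPM in double-mutant and 162 in control members (0.59, edgeR adjusted p = 0.99) and Bmpr1a 208 and 120 (0.45, adjusted p = 0.99), while EYFP averaged 116 and 174 (-0.74, adjusted p = 0.99) and Cre was seen in 1 member.

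Sfrp1, Wif1 and Timp3 had higher values in double-mutant members and did not pass the test over all genes, and they are named here after their values were seen. Of the summed markers of other cell types, the fibroblast and pericyte lists had higher medians in double-mutant members. Lower there were the endothelial (0 against 119 CPM), immune (173 against 238), acinar (12967 against 53568) and duct lists (2301 against 5997). These medians were not tested. The summed fibroblast list had a median of 3108 CPM over glands in double-mutant members (1935 to 5468) and 1296 in control members (525 to 2860), and the pericyte list 249 (0 to 860) and 39.3 (0 to 238). Col1a1, Lum, Pdgfra, Pdgfrb, Cspg4 and Mcam were at 0 in control members and found in 1 to 3 double-mutant members each, and the part of such transcripts in the values below was not tested. Sfrp1 was between 23.9 and 238 CPM in control members (median 146) and between 131 and 1136 in double-mutant members (median 879). The ranges overlapped in part, the log2 difference was 1.47 ± 0.50 (edgeR adjusted p = 0.36), and other cells averaged 13.7 CPM in double mutants and 1.80 in controls. Cells of 1 gland are not replicates, and the following intervals cover counting error only. Wif1, which binds Wnt ligands, was detected in 2 of 47 members in control P40 glands (4.26%), 2 of 45 in control P90 (4.44%), 10 of 72 in double-mutant P40 (13.9%, exact 95% interval 6.87 to 24.1%) and 5 of 11 in double-mutant P90 glands (45.5%, 16.7 to 76.6%). In the basal set Wif1 was detected in 0% and 1.02% of control cells and 25.1% and 28.9% of double-mutant cells at P40 and P90, in 13.2% and 14.6% of double-mutant cells of the contractile set against 0% in controls, and in 0.995% and 0.682% of double-mutant cells of the immune set, which should lack it. Its log2 difference in members was 2.14 ± 0.87 (edgeR adjusted p = 0.555). Timp3 was between 215 and 772 CPM in control members and between 706 and 6306 in double-mutant members, with a log2 difference of 1.28 ± 0.38 (edgeR adjusted p = 0.197).

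The EYFP reporter was detected in 18.9% of members, 19.2% of the basal set, 13.2% of the contractile set, 11.5% of other cells and 9.04% of the immune set (318 of 3519 cells, median depth 738 UMIs). The immune set, which should lack the reporter, gives the background share, and it differed by group. In control P40 glands EYFP was detected in 21.3% of members and 15.1% of the immune set, and in control P90 glands in 24.4% and 17.3%. In double-mutant P40 glands the shares were 15.3% and 14.5%. These shares pool the cells of several glands, and no difference between members and immune set was tested. Depth was not matched either, with 1071 UMIs in the median member, so the shares do not decide whether members held the reporter. In double-mutant P90 glands 1 of 11 members held a UMI, against 1.43% of the immune set.

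A difference between genotypes that held in the members and not in the rest of the gland was tested as an interaction of cell set and genotype, with gland as a block. Unlike the genotype fit, it held no term by which age or sex could change the difference between members and other cells. More control than double-mutant glands were at P90, and the part of age in this interaction was not tested. Of 617 genes, 1 passed edgeR's test (0.162%), with 40 at an unadjusted p under 0.05, and DESeq2 also called 1. It was Vim (vimentin, the intermediate filament of mesenchyme and of some myoepithelial cells), with an interaction of -3.42 ± 0.53 on the log2 scale (edgeR adjusted p = 0.00109). Control members held 629 ± 535 CPM (SD, n = 7; 119 to 1434, median 314) and double-mutant members 192 ± 91.7 (n = 7; 52.3 to 307, median 187). Control P40 replicate 1 and control P90 replicates 1 and 5 were high and the other control glands lay near the double mutants, so the ranges overlapped. Other cells went the other way, with 23.7 CPM in controls (4.89 to 40.2) and 98.9 in double mutants (30.0 to 287). Members alone differed by -1.82 ± 0.47 (edgeR adjusted p = 0.104), so the interaction draws on both sums. The other cells were taken as 1 sum and not split by type.

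**Figure D5:**
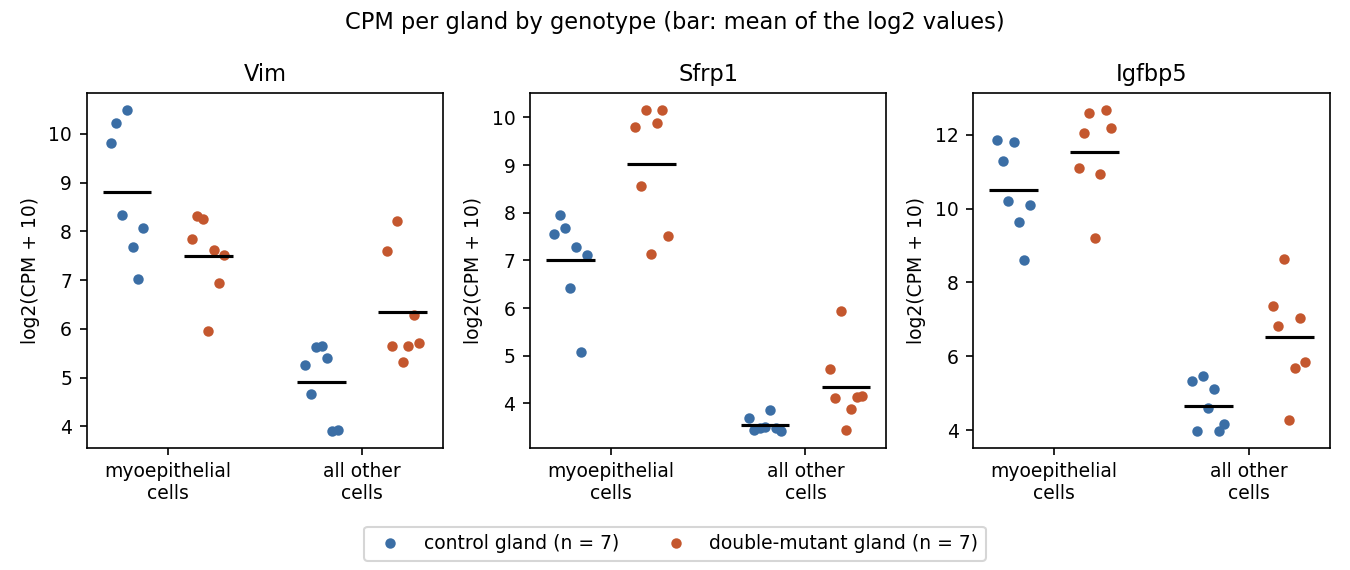
Level per gland on the scale log2(CPM + 10) of Vim, Sfrp1 and Igfbp5 in myoepithelial cells and in all other cells of 7 control and 7 double-mutant glands. Vim is lower on average in double-mutant members (192 against 629 CPM) and higher in double-mutant other cells (98.9 against 23.7 CPM), whereas Sfrp1 is higher on average in double mutants in both.

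Between P90 and P40 control members, in 3 and 4 glands, 9 of 1249 genes passed (0.721%), 5 higher at P90 (0.4%) and 4 lower (0.32%), with 95 at an unadjusted p under 0.05, and DESeq2 called 2 genes lower and 0 higher, none of them among the 9. Of the immediate early list, which also holds heat-shock chaperones, 3 of 22 tested genes were higher and 0 lower (median 0.93). They were the heat-shock genes Hspa1a, Hspa1b and Dnajb1, and no other gene of that list passed. Hspa1a, an inducible chaperone, stood at 3873, 1549 and 1610 CPM in the P90 glands and at 302, 244, 119 and 193 in the P40 glands, so the ages did not overlap (2.46 ± 0.47, edgeR adjusted p = 0.0236). Its copy Hspa1b, whose near-identical sequence can share tags with it, stood at 3217, 1191 and 746 CPM against 151, 171, 95.4 and 64.3, and Dnajb1, a co-chaperone, at 953, 834 and 668 against 75.5, 24, 95.4 and 0. In other cells Hspa1a was also higher at P90, with 557, 520 and 565 against 132, 167, 85.6 and 256 CPM. The other genes higher at P90, Gm8894 and Gm6977, have no role given here. Lower at P90 were the secretory genes Bpifa2, BC048546, Muc19 and Dcpp1. Dcpp1 was at 0, 0 and 78.5 CPM at P90 and at 0, 5046, 2052 and 33489 at P40, with the highest value in control P40 replicate 4 for each of these genes, and these transcripts were also lower at P90 in other cells. What part the same differences in other cells had in those of the members was not tested, and age cannot be told apart from batch. Leaving out 1 gland changed the count of genes to between 0 and 23, with 0 without control P90 replicate 1 or 5 or control P40 replicate 2 or 3, 1, a gene not among the 9, without control P40 replicate 4, 14 without control P90 replicate 6 and 23 without control P40 replicate 1.

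Between male and female control members 3 of 1249 genes passed (0.24%), 2 higher in males (0.16%) and 1 lower (0.0801%), with 63 at an unadjusted p under 0.05, and DESeq2 called 1. 2310057J18Rik averaged 10265 CPM in male and 33.8 in female members (8.05 ± 1.45), Bglap3 713 and 48.8 (3.60 ± 0.68), and Smgc 31.8 and 1153 (-4.11 ± 0.76), each with an edgeR adjusted p of 0.0126. The same genes moved in other cells, where 2310057J18Rik stood at 16009, 11292 and 13586 CPM in the male glands and 1864, 48, 479 and 18 in the female glands. Without control P40 replicate 2 the count was 0, without control P90 replicate 5 it was 1 and without control P40 replicate 1 it was 8, and the 2 genes called without control P40 replicate 4 were none of the 3.

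Bulk libraries of a whole control gland at P70 and a whole double-mutant gland at P100, 1 each and so without a test, gave the myoepithelial genes in tissue that was not dissociated into droplets. In counts scaled to gene length and library size (TPM), the log2 ratio of double mutant to control was -1.38 for Acta2 (1938 and 740 counts in control and double mutant), -1.34 for Myh11 (2054 and 807), -1.41 for Cnn1, -1.39 for Tpm2, -2.08 for Tspan2, -2.06 for Lmod1, -1.23 for Krt5 and -0.38 for Krt14. Of the 34 genes of the rule and of the highest ratios, 27 were below the median of -0.29 over 13276 genes and 7 above it. The 7 were Synm (0.52), Sfrp1 (0.47), Nexn (0.22), Spon2 (0.12), Pmp22 (0.05), Fgf7 (0.01) and Postn (-0.08). In such tissue, fewer myoepithelial cells and less RNA per cell cannot be told apart, vascular smooth muscle adds to the contractile genes, and the libraries differed in age as well as genotype.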

How the data were processed

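The authors deposited gene by barcode tables of raw UMI counts for each Drop-seq and CITE-seq library, made with Drop-seq tools and STAR on mm10 with GENCODE vM7 plus Cre and EYFP, with barcodes kept above the knee of the UMI curve, and raw counts per gene for the bulk libraries, made with STAR and featureCounts. From the bulk counts TPM were computed with the gene lengths of those tables. Barcodes with at least 100 genes and under 15% mitochondrial UMIs were kept in Drop-seq, and at most 2500 genes were allowed in CITE-seq. No doublet caller was run.

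Samples were grouped by their labels, with the gland as replicate. Shares were compared by two-sided permutation tests, exact or with 100000 resamples (numpy 2.4.6). The exact tests of the basal, contractile and epithelial shares used scipy 1.17.1. Summed UMIs were tested in edgeR 4.0.16 (R 4.3.3) with TMM, filterByExpr (minimum count 3, minimum total 15), glmQLFit and glmQLFTest in glands with at least 5 cells, with Benjamini-Hochberg adjustment over all genes tested outside the rule and a threshold of 0.05. Alternatives were DESeq2 1.42.0, relative log expression scaling, other filters and cell minimums, thinning, covariates and libraries left out. Depth ran from 777537 to 7013325 UMIs a gland, and intervals and floors (3 counts) cover counting error only.

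Named were, in each comparison, the 12 called genes furthest in each direction, called members of the gene lists, the genes of the rule by value, Bmpr1a, Ctnnb1, Cre and EYFP, and the 25 genes with the highest ratio of level in members to other cells among those found in at least 20% of members. Members and gene lists were chosen with earlier results of these data known. Fits were tested on simulated data. RefSeq windows (GRCm38.p6) and GENCODE vM21 positions were read from the reference files.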

Additional observations from a re-analysis of the deposited data

Results flagged for a closer look

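Of 104 sets of 4 to 10 glands examined for 1 gland far from the others, 19 held such a value by Dixon's test at the 95% level, where chance gives about 1 in 20. The share of myoepithelial cells in double-mutant P40 replicate 2, 2.68%, stood apart from the other double-mutant P40 glands.

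Among control members, control P40 replicate 4 stood apart for the secretory transcripts BC048546 (5276 CPM), Bpifa2 (8782 CPM), Dcpp1 (33489 CPM) and Muc19 (2606 CPM). In double-mutant members, replicate 4 at P40 stood apart for BC048546 (561 CPM), Bpifa2 (2494 CPM) and Dcpp1 (39274 CPM), and replicate 3 at P40 for 2310057J18Rik (5412 CPM). Control P90 replicate 5 was far above the other controls for Actg2 (477 CPM), Fgf7 (715 CPM), Gm8894 (834 CPM) and Synm (596 CPM). Control P90 replicate 1 was far above them for Hspa1a (3873 CPM) and Hspa1b (3217 CPM). Of the other double-mutant glands, P40 replicate 6 stood apart for Bmpr1a (564 CPM), P40 replicate 7 for Gas1 (1727 CPM) and Postn (2590 CPM), and P90 replicate 3 for Krt14 (3736 CPM).

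The age difference in share differed between genotypes by -1.0 points (permutation p = 0.0412, not adjusted), and did not pass without the 3 doubted libraries (p = 0.0804). In controls age and batch cannot be told apart. The genotype difference of Vim differed between members and other cells by -3.42 on the log2 scale, in a fit without a term for age by cell set (edgeR's quasi-likelihood test). In members alone Vim did not pass that test and the ranges overlapped, and the other cells were taken as 1 sum.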

How the results depend on the processing

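The alternatives with members over 5000 UMIs left out, double-mutant ages permuted within batches, and single ages combined with thinning were chosen after seeing the data. The share difference between genotypes (-0.142 points) changed sign at 1000 UMIs (0.132), per epithelial cell (0.0715), at P40 alone (0.359) and at P40 at 1000 or 500 UMIs (0.580, 0.367), never past the threshold. The age difference in double mutants no longer passed within batches at 500 UMIs (-0.634 points) and passed in its other alternatives. Genes between genotypes numbered 1, and 0 with DESeq2, with the default filter of 10 or with batch as a covariate, 2 with relative log expression scaling or the replicate block, 3 other genes without members holding markers of other types, 5 without members over 5000 UMIs, 9 with a minimum of 3 cells or at P40 alone, 12 with no filter or with the number of cells as a covariate, and 0 to 4 without 1 gland (0 without control P40 replicate 3 or 4, and 1 other gene without double-mutant P40 replicate 4). Same-numbered glands correlated between -0.136 and 0.281, so the numbers do not pair them, and no replicate block could be fitted for age and sex in controls. Genes by age in controls (9) numbered 2 other genes with DESeq2, 5 with the default filter, 0 with a minimum of 10 cells or the number of cells as a covariate, 21 without members over 5000 UMIs, and 0 to 23 without 1 gland. Genes by sex (3) numbered 1 with DESeq2, without members over 5000 UMIs or with the number of cells as a covariate, 5 with no filter, and 0 to 8 without 1 gland. Against the basal set (294) the counts were 619 with no filter, 103 with the default and 253 to 298 without 1 gland, and against the contractile set (91) 142, 21 and 55 to 98, with fewer genes tested under stricter filters. The interaction (1) gave 17 with no filter, 0 with the default, which did not test Vim, 2 without members over 5000 UMIs and 1 to 3 without 1 gland. Of the called genes named, 57 of 74 against the basal set and 27 of 40 against the contractile set passed in every alternative that tested them, as did Vim, and none changed sign. Uncalled values that changed sign were Ctnnb1 without members holding other markers, between genotypes (-0.14) and by age (-0.018), Ctnnb1 by sex with a minimum of 3 cells (0.0975), without those members (0.40), without members over 5000 UMIs (0.27) and without 1 gland (-0.36 to 0.58), EYFP by age without 1 gland (-0.22 to 1.33), and the EYFP interaction with a minimum of 10 cells (-0.14), without those members (-0.39) and without 1 gland (-0.134 to 0.163). The causes were not tested.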
